A study of Saccharomyces cerevisiae with 6 samples.

Results

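The proteasome genes of Saccharomyces cerevisiae, the budding yeast, were read in wild type and in a histone H2B mutant, K111A, in which alanine replaces a lysine. The 40 genes came from a given list of core and regulatory particle subunits, assembly chaperones and factors that bind the finished complex. The list also held RPN4, whose product, a transcription factor, activates most subunit genes. Each of the 40 had 1 probe set in the array annotation, so all were measured, of 5449 budding yeast genes in all. The wild-type arrays came from strain PY014, with wild-type H2B, and the mutant arrays from strain WY317, with H2B K111A, 3 arrays each. Both strains were harvested in mid-log phase from YPD, a rich medium with glucose. The wild type was labelled as the control of a second H2B substitution, R102A, as well. The labels number the arrays of each strain without saying whether they came from separate cultures, and the spread behind each p-value is that between these arrays, which may be partly technical.

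The proteasome is the protease that degrades ubiquitin-tagged proteins in the cytosol and nucleus. Its core particle is a barrel of stacked alpha and beta rings that keeps the cutting sites inside, and its regulatory particle recognises the ubiquitin chain, removes it, and unfolds and threads the substrate. In budding yeast most subunit genes carry a promoter element bound by Rpn4, a short-lived activator that is itself degraded by the proteasome, so that subunit mRNA rises when proteasome activity is short.

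Values were deposited as linear intensities, 1 per probe set and array. The mean over all probe sets was 146.4 to 148.2 on the 6 arrays. The 99th percentile of fission yeast probe sets on the same array, taken as background, was 3.7, and all 40 genes lay above it on all 6 arrays. The wild-type means of the 40 genes ran from 86.6 for RPN14 to 787.6 for PRE6, each on the scale of its own probe set, so that levels of different genes are not set against each other. The H2B substitution need not change the reading of any probe set, and no reading here tests the strain labels. Some control probe sets moved with the strain. The mean log2(intensity + 32) of 17 ribosomal RNA probe sets was 6.43 ± 0.12 on wild-type arrays and 6.69 ± 0.09 on mutant arrays (SD, n = 3 each). The log2 ratio of 5' to 3' probe sets over 14 pairs for Bacillus transcripts was -0.47 ± 0.05 and -0.35 ± 0.05. For both, the exact two-sided permutation test gave p = 0.1, its minimum with 3 against 3 arrays. On 11 pairs for yeast transcripts the ratio was -0.75 ± 0.06 and -0.77 ± 0.03 (exact permutation p = 1). The part of these controls in the differences below was not tested.

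Proteasome mRNA was nearly level between the strains. Of the 40 genes 1 fell in the mutant, PRE2, and 0 rose, in a comparison where 14.5% of all genes passed limma's test at an adjusted p under 0.05, 6.92% higher and 7.62% lower. An unadjusted p under 0.05 was reached by 9 of the 40, or 22.5%, against 31.7% of all genes. The differences, mutant minus wild type on the log2(intensity + 32) scale, ran from -0.20 for PRE2 to 0.15 for HSM3. Their median was -0.025, beside -0.00048 over all genes, and 23 were below 0 and 17 above. The median size of a difference, without its sign, was 1.04-fold for the 40 genes and 1.05-fold for all genes on the same scale. Neither is a fold of intensity, and the scale understates dim genes.

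The readings were tight enough to bound most of these differences. On the log2(intensity + 32) scale, the 95% interval lay wholly within 1.2-fold in either direction for 39 of the 40 genes, or 97.5%. PRE2 was the exception on that scale. Intervals of 85.6% of all genes lay within the same bound. Folds of intensity itself are larger than on this scale, most of all for dim genes. Against a bound in intensity, PRE2 need not be the only exception. The upper limits of HSM3 and ECM29 were each 1.19-fold on the log2(intensity + 32) scale, just inside the bound. The intervals are not adjusted for the number of genes. For the 40 genes the median SD between arrays of a strain was 0.033 (wild type) and 0.035 (mutant), against 0.050 and 0.042 over all genes. Neither the SDs nor the shares of intervals were compared at matched brightness. Wild-type means ran from 86.6 to 787.6 for the 40 genes and from 0.067 to 1836 over all genes. The intervals of the 40 genes reached no lower than -0.33 and no higher than 0.26 on the log2 scale.

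**Figure D1:**
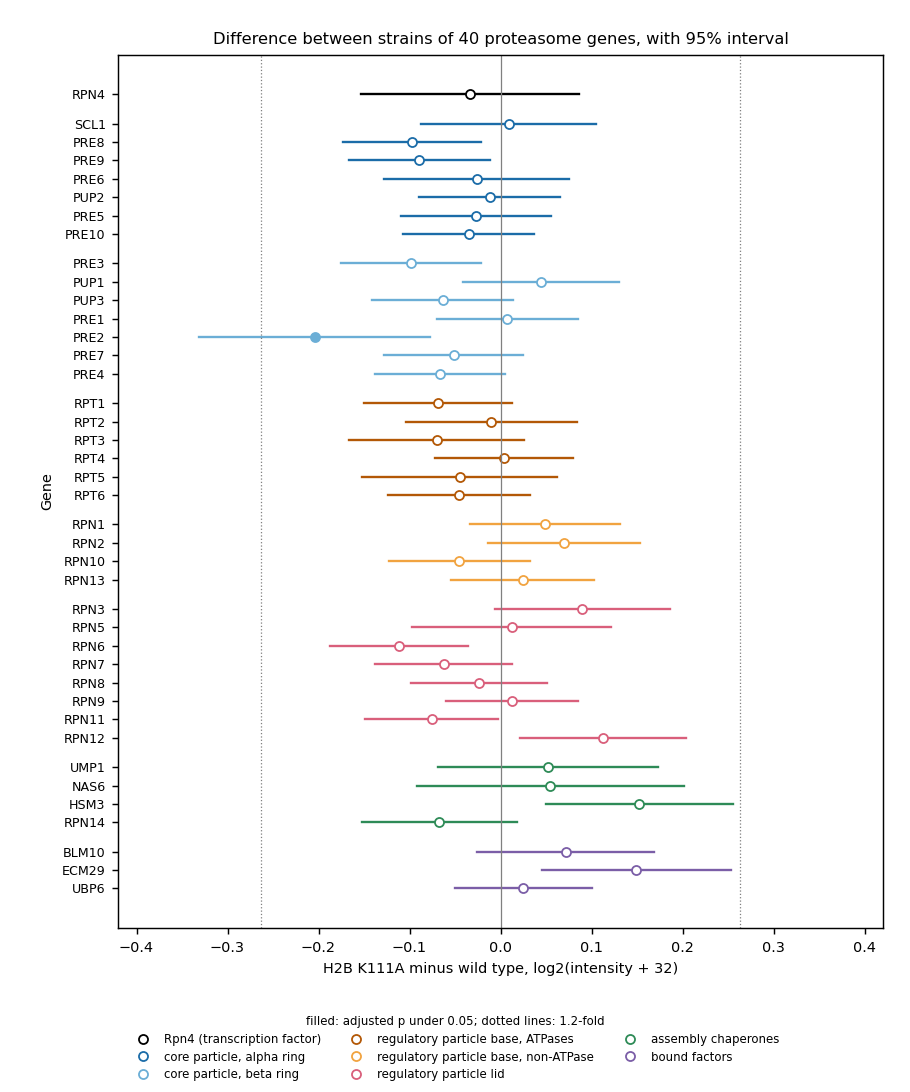
Each point is the fitted difference of 1 gene, H2B K111A minus wild type on the log2(intensity + 32) scale, and each line its 95% interval. Genes are grouped and coloured by role, and a filled point marks an adjusted p under 0.05. Dotted lines mark 1.2-fold in either direction on that scale. PRE2 is the filled point, and its interval is the 1 that crosses a dotted line.

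RPN4 (YDL020C), the transcription factor gene, did not pass. Its intensity was 377.4, 386.1 and 429.8 on wild-type arrays 1 to 3, and 403.4, 368.1 and 391.2 on mutant arrays 1 to 3. The highest reading came from wild-type array 3 and the lowest from mutant array 2, and the strains overlapped. The means were 398 ± 28.1 and 388 ± 17.9 (SD, n = 3 each), a log2 difference of -0.03 with a 95% interval of -0.15 to 0.09 (adjusted p = 0.706). As a ratio on the same scale, the interval ran from 0.899 to 1.06. The direction of the RPN4 difference rested on single arrays, since it was 0.019 without wild-type array 3 and 0.0003 without mutant array 2.

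Of the 14 core particle genes, 11 (78.6%) read lower in the mutant on average, against 50.2% of all genes. The other 3 read higher, and PRE2 alone passed. PRE2 (YPR103W) encodes the beta subunit with the chymotrypsin-like cutting site. It read 697.9, 824.4 and 756.5 in wild type and 671.3, 654.1 and 636.4 in the mutant. All mutant readings lay below all wild-type readings, and the wild-type readings were the more scattered, with array 2 the highest. The means were 760 ± 63.3 and 654 ± 17.5 (SD, n = 3 each), 1.16-fold lower in the mutant, with a log2 difference of -0.20, a 95% interval of -0.33 to -0.08 and an adjusted p of 0.0426 from limma. The call was close to the threshold. Leaving out wild-type array 2 (adjusted p = 0.083, log2 difference -0.15) or 3 (0.0762), or mutant array 1 (0.0807), 2 (0.102) or 3 (0.138), ended it. It was also lost with a pseudocount of 1 in place of 32 (0.0857) or of 4 times 32 (0.055).

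The other cutting sites belong to PRE3 and PUP1. PRE3 (YJL001W), the subunit with the caspase-like site, read 678.5, 662.9 and 649.8 in wild type and 626.3, 621.4 and 606.4 in the mutant. These values did not overlap, and the log2 difference was -0.10 (95% interval -0.17 to -0.02, adjusted p = 0.086), past the threshold only with the larger pseudocount (0.0418). PUP1 (YOR157C), the subunit with the trypsin-like site, read 661.4, 623.6 and 638.0 in wild type and 683.7, 654.5 and 647.5 in the mutant. These overlapped, and the log2 difference of 0.04 had an interval of -0.04 to 0.13 (adjusted p = 0.461). The 3 catalytic genes thus read lower, lower and higher in the mutant on average. Whether PRE2 differs from PUP1 in its response was not tested.

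The 4 beta subunit genes without a cutting site of their own, PUP3, PRE1, PRE7 and PRE4, had log2 differences of -0.06, 0.007, -0.05 and -0.07, with adjusted p from 0.185 to 0.9. In the alpha ring, which gates the entrance to the barrel, 6 of 7 genes read lower on average and 0 passed. PRE8 (YML092C) was the lowest, with 584.7, 579.5 and 558.9 in wild type against 530.3, 533.9 and 540.0 in the mutant, which did not overlap (log2 difference -0.10, adjusted p = 0.0845). It passed with the larger pseudocount (adjusted p = 0.0402). PRE9, the gene of the alpha subunit that yeast can live without, had a log2 difference of -0.09 (adjusted p = 0.11). The other alpha genes lay nearer 0, with -0.04 for PRE10, -0.03 for PRE5 and PRE6, -0.01 for PUP2 and 0.009 for SCL1.

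The strains' readings did not overlap for 7 of the 14 core particle genes, or 50%, all lower in the mutant: PRE2, PRE3, PUP3, PRE4 and PRE7 of the beta ring and PRE8 and PRE9 of the alpha ring. Over all 5449 genes the readings did not overlap in 36.7%, 18.2% higher and 18.6% lower. Over all 40 proteasome genes they did not overlap in 17, or 42.5%, of which 13 were lower and 4 higher. The median deviation of the core particle genes from their wild-type means was -0.02, -0.05 and -0.06 on mutant arrays 1 to 3. Over all genes it was -0.007, -0.005 and 0.012 on the same arrays. On the wild-type arrays it lay between -0.003 and 0.0008 for the core particle genes. The wild-type arrays set those means, which holds their own deviations near 0, so this range does not measure the scatter between arrays.

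**Figure D2:**
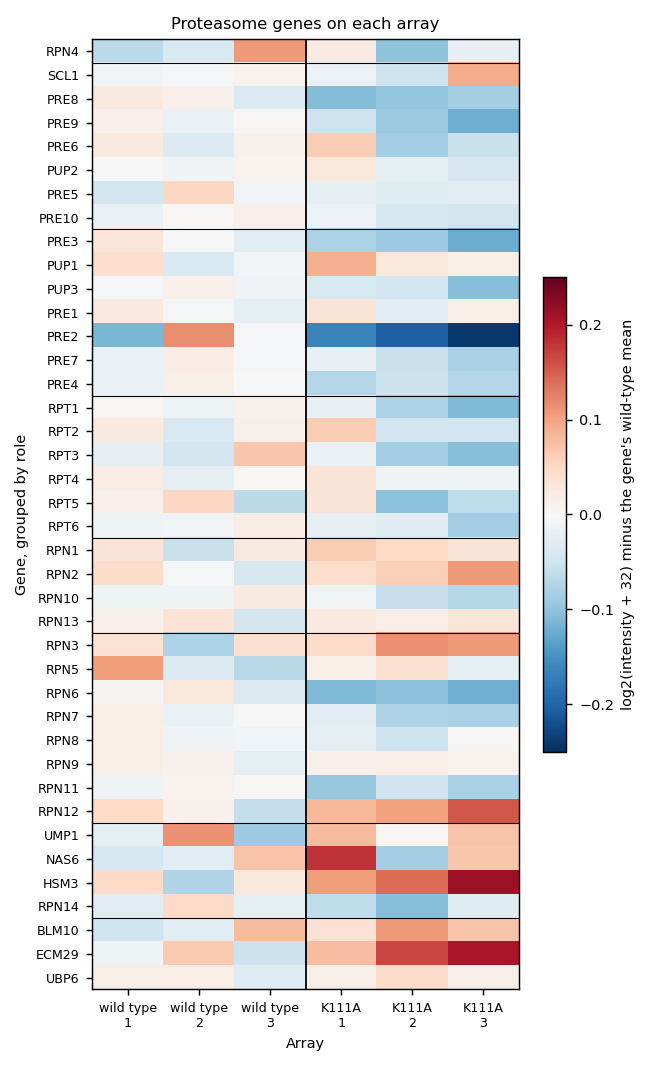
Each row is 1 of the 40 genes, grouped by role, and each column 1 array. Colour gives log2(intensity + 32) minus the gene's wild-type mean, blue below and red above. PRE2 is the darkest blue in the mutant columns, while HSM3 and ECM29 are red there, and RPT4 and RPN9 are pale throughout.

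In the base of the regulatory particle, the 6 ATPase genes RPT1 to RPT6, whose ring unfolds substrates, had log2 differences from -0.07 for RPT3 and RPT1 to 0.004 for RPT4, and 0 passed. RPT6 and RPT1 readings did not overlap between strains, with adjusted p of 0.396 and 0.231. The non-ATPase base genes leaned the other way in 3 of 4 cases. RPN1 and RPN2, the large scaffold subunits, had log2 differences of 0.05 and 0.07 (adjusted p = 0.389 and 0.235). The ubiquitin receptor genes RPN10 and RPN13 had -0.05 and 0.02 (adjusted p = 0.4 and 0.672).

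The lid genes were evenly divided, with 4 of 8 lower and 4 higher on average and 0 past the threshold. RPN6 (YDL097C), a lid subunit that also touches the core particle, read 683.0, 694.2 and 662.7 in wild type and 627.1, 631.0 and 622.7 in the mutant. These did not overlap, and the means of 680 ± 16 and 627 ± 4.15 (SD, n = 3 each) differed by -0.11 on the log2 scale (adjusted p = 0.0552). RPN6 passed under 4 of 16 alternatives, with quantile normalization (adjusted p = 0.0468), the larger pseudocount (0.0263), array weights (0.0469) and a trended, robust variance prior (0.0415).

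RPN12 (YFR052W), another lid subunit, lay on the other side, with 542.9, 528.2 and 501.0 in wild type and 556.6, 563.7 and 587.0 in the mutant. These did not overlap, and the log2 difference was 0.11 (adjusted p = 0.0926). RPN3 also read higher without overlap (log2 difference 0.09, adjusted p = 0.184). RPN11, the deubiquitinating enzyme of the lid, and RPN7 read lower without overlap (-0.08 and -0.06, adjusted p = 0.148 and 0.237). RPN8, the partner of Rpn11, had a log2 difference of -0.02, and RPN5 and RPN9 had 0.01 each.

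The assembly chaperones and bound factors read higher in the mutant in 6 of 7 cases on average, against 2715 of all 5449 genes. Their median log2 difference was 0.05, and 0 passed. ECM29 and BLM10 among them are over 3000 bp, a length class whose median over all genes was 0.037. HSM3 (YBR272C), a chaperone of base assembly, read 139.1, 125.1 and 136.4 in wild type and 145.8, 150.3 and 159.8 in the mutant. These did not overlap, and the means of 134 ± 7.43 and 152 ± 7.15 (SD, n = 3 each) gave a 1.14-fold ratio, with a log2 difference of 0.15 (95% interval 0.05 to 0.26, adjusted p = 0.0542). HSM3 passed with quantile normalization (adjusted p = 0.0349), with arrays centred on their medians (0.0355) and with the trend over gene length removed (0.0371). The other base chaperones NAS6 and RPN14 had log2 differences of 0.05 and -0.07, and UMP1, which helps the core particle mature, 0.05.

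ECM29 (YHL030W), whose product binds core and regulatory particle together, read 173.8, 185.1 and 167.9 in wild type and 187.0, 200.9 and 206.9 in the mutant. All mutant readings lay above all wild-type readings (log2 difference 0.15, 95% interval 0.05 to 0.25, adjusted p = 0.0605), and no alternative gave an adjusted p under 0.0502. BLM10, which encodes an alternative activator that caps the core particle, had a log2 difference of 0.07 (adjusted p = 0.286). UBP6, the deubiquitinating enzyme bound to the base, had 0.03 (adjusted p = 0.65).

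**Figure D3:**
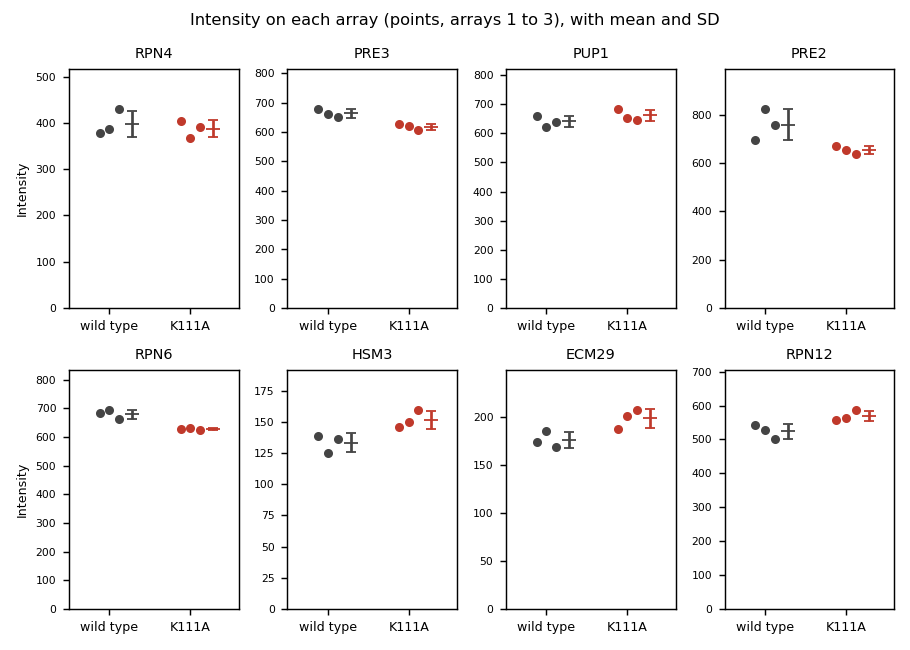
Intensity on each array for 8 of the genes, with wild type in grey and H2B K111A in red; points are arrays 1 to 3 from left to right, and bars show mean and SD. RPN4 and PUP1 overlap between the strains, while PRE2, PRE3 and RPN6 lie lower and HSM3, ECM29 and RPN12 higher in the mutant without overlap.

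The median of the 40 genes overlapped between the strains. The median deviation from the wild-type means was 0.01, -0.004 and -0.0009 on wild-type arrays 1 to 3, and 0.01, -0.05 and -0.03 on mutant arrays 1 to 3. On this measure mutant array 1 lay above all wild-type arrays, and mutant arrays 2 and 3 below. The measure holds the wild-type arrays near 0, since their own means are subtracted. Within the mutant, 29 of the 40 genes (72.5%) lay above their own strain mean on array 1, against 43.5% of all genes, 14 (35%) did on array 2, against 45.1%, and 15 (37.5%) did on array 3, against 61.1%. Without mutant array 2 the median difference of the 40 genes was -0.0046 in place of -0.025, and without mutant array 1 it was -0.039.

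Gene length moved with the difference between the strains. Over all genes the median log2 difference was -0.0075 for the 2087 genes of up to 1000 bp and 0.037 for the 461 genes over 3000 bp, of which 12.1% passed higher and 2.82% lower. Among the proteasome genes, both over 3000 bp, ECM29 and BLM10, and both between 2000 and 3000 bp, RPN1 and RPN2, read higher on average. Of the 20 genes of up to 1000 bp, which include all 14 of the core particle, 7 did. Spearman's correlation between length and log2 difference was 0.26 over the 40 genes and 0.09 over all genes, a description across genes of the same 6 arrays. With the trend over length removed from each array, a step chosen after seeing the data, PRE2 kept its call and the median difference of the 40 genes was -0.019. The log2 differences of the 4 longest genes moved towards 0, to 0.02 for BLM10, 0.10 for ECM29, 0.03 for RPN1 and 0.05 for RPN2. The trend removed was fitted to these same arrays, so this move is not a test of length.

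**Figure D4:**
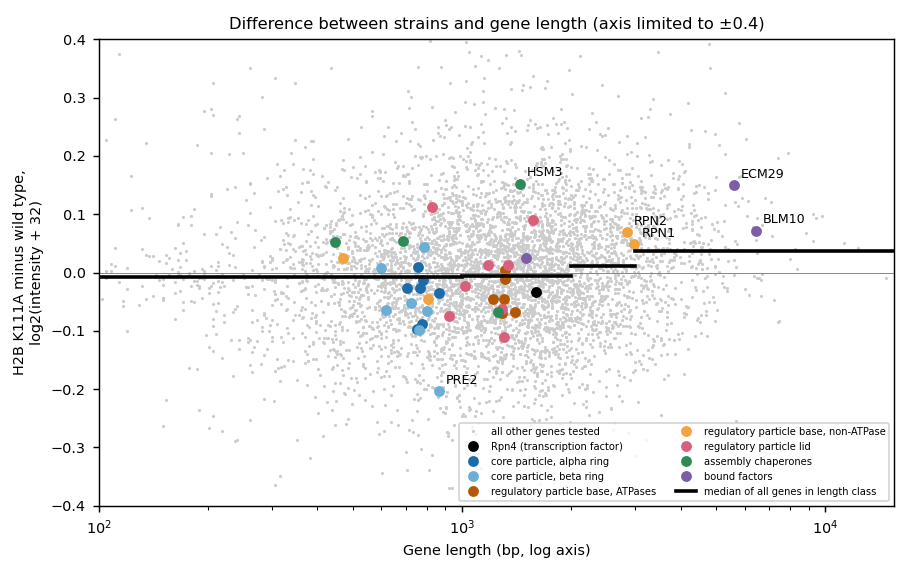
Gene length on a log axis against the log2 difference, H2B K111A minus wild type, for all genes (grey) and the 40 proteasome genes (coloured by role). Black bars are the medians of all genes in 4 length classes, which run from -0.0075 for the shortest to 0.037 for the longest. The vertical axis stops at 0.4 in either direction, so larger differences are not drawn.

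Around the proteasome, 78 related genes were measured in 6 lists, of which 5 rose and 2 fell in the mutant, together 8.97% against 14.5% of all genes. RAD6 stands in 2 of the lists and was counted once. The 10 other proteasome genes, among them the small lid subunit SEM1 and the core particle chaperones PBA1, ADD66, IRC25 and POC4, held 0 past the threshold, with a median log2 difference of 0.01. The nearest was SPG5, which acts on the proteasome in stationary phase in yeast and is named after its value was seen (log2 difference 0.13, adjusted p = 0.0532). SPG5 passed, higher in the mutant, under 7 of 16 alternatives, with adjusted p down to 0.0249 with quantile normalization and 0.0377 without wild-type array 3.

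Among the 7 genes that control Rpn4, 1 passed, MUB1 (YMR100W), which fell (14.3%, against 14.5% of all genes). Mub1 works with the ligase Ubr2 and the conjugating enzyme Rad6 to tag Rpn4 for degradation. MUB1 read 63.5, 74.0 and 69.5 in wild type and 58.8, 58.4 and 56.3 in the mutant. All mutant readings lay below all wild-type readings (means 69.0 ± 5.27 and 57.8 ± 1.34, SD, n = 3 each; log2 difference -0.17, adjusted p = 0.0349). The call was lost without any 1 array except wild-type array 1, with adjusted p up to 0.118 without mutant array 3. UBR2 averaged 30.3 ± 2.31 in wild type against 30.1 ± 1.88, and RAD6 246 ± 14 against 236 ± 6.22 (SD, n = 3 each), neither past the threshold (adjusted p = 0.949 and 0.452).

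Of the activators of RPN4 transcription, YAP1, of the oxidative stress response, read 239.9, 230.6 and 197.2 in wild type and 178.3, 191.2 and 198.3 in the mutant. These overlapped, and the log2 difference of -0.20 did not pass (adjusted p = 0.0709). It passed with array weights (adjusted p = 0.0373) and without wild-type array 3 (adjusted p = 0.0137, log2 difference -0.27). PDR1 and PDR3, of drug resistance, had log2 differences of -0.05 and -0.04, and HSF1, of the heat shock response, 0.01, with adjusted p from 0.34 to 0.877.

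Of 16 genes listed as ubiquitin ligases or their cofactors, 3 rose and 0 fell, or 18.8% against 14.5% of all genes. SSM4 (YIL030C), a ligase of the endoplasmic reticulum and nuclear envelope also known as Doa10, read 435.9, 419.7 and 433.2 in wild type and 478.0, 496.6 and 482.0 in the mutant, without overlap (log2 difference 0.17, adjusted p = 0.018). ASI1, of an inner nuclear membrane ligase, read 214.7, 214.7 and 225.3 in wild type and 234.8, 261.5 and 268.1 in the mutant, a 1.17-fold rise (adjusted p = 0.0314). UBR1, the N-end rule ligase, read 298.4, 310.8 and 331.3 in wild type and 349.5, 354.4 and 362.3 in the mutant, a 1.13-fold rise (adjusted p = 0.0322). For all 3 ligase genes the mutant readings lay above all wild-type readings.

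Of 18 deubiquitinating enzymes 2 rose and 1 fell, together 16.7% against 14.5% of all genes. UBP2 read 243.9, 237.0 and 215.7 in wild type and 261.8, 266.0 and 262.4 in the mutant, 1.13-fold higher (adjusted p = 0.0416). UBP15 read 142.3, 130.3 and 134.8 in wild type and 150.1, 149.4 and 162.1 in the mutant, 1.13-fold higher (adjusted p = 0.0492). UBP16, of the mitochondrial outer membrane, read 70.6, 69.9 and 77.5 in wild type and 59.5, 66.0 and 60.6 in the mutant, 1.17-fold lower (adjusted p = 0.0445). In none of these 3 did the strains overlap.

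Of the 5 related genes that rose, 4 are genes over 3000 bp, UBR1, SSM4, UBP2 and UBP15. With the trend over gene length removed, UBR1, UBP2 and UBP15 did not pass (adjusted p = 0.0961, 0.0694 and 0.0705), and SSM4 and ASI1 did. That trend was fitted to the same arrays, so the losses are not a test of length. Each of the 7 calls was also lost without mutant array 3, with adjusted p of 0.0622 for SSM4, 0.112 for ASI1, 0.113 for UBR1, 0.114 for UBP2, 0.163 for UBP15, 0.14 for UBP16 and 0.118 for MUB1. The SSM4 call was lost without mutant array 2 as well (adjusted p = 0.0593), that of ASI1 without wild-type array 1 or 2 or mutant array 2 (0.0725 to 0.0928), and that of UBR1 without any 1 array except wild-type array 3 (0.0708 to 0.113). That of UBP2 was lost without any 1 array except wild-type array 1 (0.0634 to 0.114), that of UBP16 without any 1 except mutant array 2 (0.0587 to 0.14), and that of UBP15 without any 1 of the 6 (0.0531 to 0.163).

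Ubiquitin activation and conjugation held 0 of 13 past the threshold. UBI4, the polyubiquitin gene, whose repeats resemble the ubiquitin parts of other genes that its probe set may read, was 773 ± 30.7 and 821 ± 16.7 (SD, n = 3 each, adjusted p = 0.179), and UBA1, the activating enzyme, 591 ± 32.6 and 617 ± 8.71 (adjusted p = 0.374). The list of Cdc48 and shuttle factors, which pull tagged proteins free or carry them to the proteasome, held 0 of 15. CDC48, the ATPase, had a log2 difference of 0.07 (adjusted p = 0.267) and RAD23, a shuttle factor, 0.002 (adjusted p = 0.967). The genes in this paragraph were chosen for their roles, outside the rule for named genes.

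**Figure D5:**
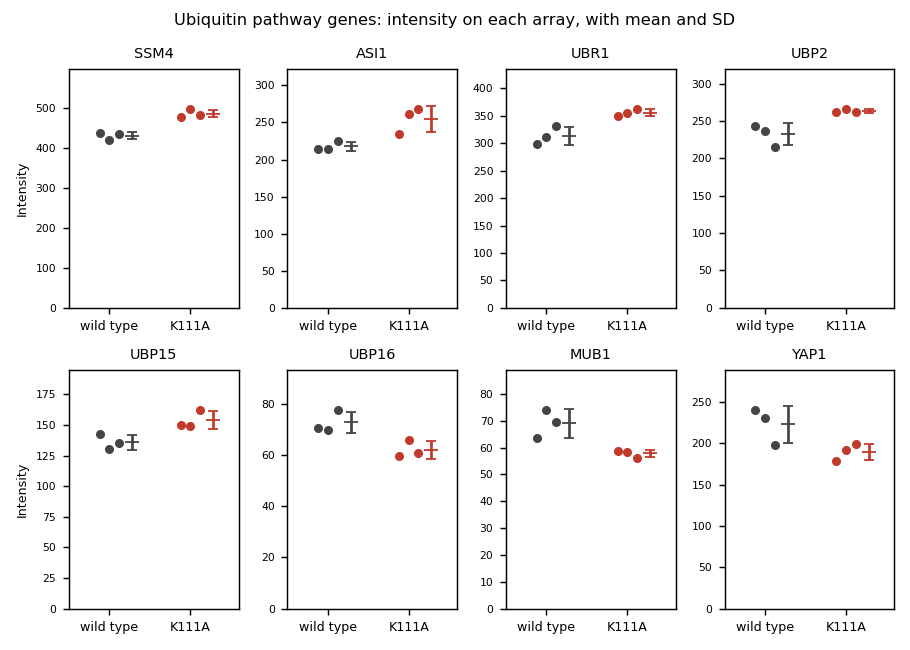
Intensity on each array for 8 genes of the ubiquitin pathway, wild type in grey and H2B K111A in red, with mean and SD. SSM4, ASI1, UBR1, UBP2 and UBP15 lie higher and UBP16 and MUB1 lower in the mutant without overlap, and YAP1 overlaps.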

How the data were processed

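Per the labels, total RNA of each array was made into biotin-labelled cRNA. The authors deposited linear intensities for 10928 probe sets, already on a common scale; the software is not given in the sources used here, no genome build is named and no coordinates are printed. GEO's platform annotation, matched by gene identifier to RefSeq R64, named 5498 budding yeast probe sets. The brightest per gene over 6 arrays was kept, leaving 5449 genes. Differences of log2(intensity + 32), which understate dim genes, were fitted over all genes in limma 3.58.1 (lmFit, eBayes; R 4.3.3), with two-sided p-values adjusted by Benjamini-Hochberg, threshold 0.05, with no block and no further scaling (array medians 7.56 to 7.59). The procedure was tested on simulated data. The number of arrays limits the precision. Gene lengths are RefSeq's. Values on every array are given for RPN4, the 3 catalytic genes, the proteasome gene past the threshold and the 3 nearest below it (HSM3, RPN6, ECM29); those of PRE8, RPN12, YAP1 and the 7 related genes past the threshold were added after their values were seen. Up to 4 passing genes of each related list are named. Members and lists were chosen with earlier results of these data known. A planned search of promoters for the Rpn4 element was not run, since promoter sequence was not used here. Figures were drawn with matplotlib 3.10.9.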

Additional observations from a re-analysis of the deposited data

How the results depend on the processing

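Precision is set by 3 arrays a strain. The count of proteasome genes higher, 0 in the analysis as reported, was 1 (HSM3) with quantile normalization, with arrays centred on their medians and with the length trend removed, and 0 to 0 when 1 array was left out. The count lower, 1, was 0 with a pseudocount of 1, with the replicate block and at an adjusted p under 0.01, 3 (PRE3, PRE8, RPN6) with 4 times the pseudocount, 2 (PRE2, RPN6) with quantile normalization, a trended and robust prior or array weights, and 0 to 1 when 1 array was left out. Both counts, and PRE2, stayed with dim genes removed and with the mean of all probe sets. The median log2 difference of the 40 genes stayed below 0, from -0.0387 to -0.00458 when 1 array was left out and from -0.0262 to -0.0135 otherwise. Of the related genes, 5 higher became 1 with a pseudocount of 1 or the replicate block, 0 at an adjusted p under 0.01, 3 with the length trend removed, 7 with quantile normalization or centred arrays (SPG5 and UFD2 added), 6 with dim genes removed or the trended, robust prior, and 0 to 4 when 1 array was left out. The count lower, 2 (MUB1, UBP16), became 0 with a pseudocount of 1, the block or the stricter threshold, 1 with 4 times the pseudocount (UBC6, with neither of the 2), 3 with quantile normalization or the length trend removed, and 0 to 2 when 1 array was left out, where the 2, without wild-type array 3, were UBX4 and YAP1. The cause of these moves was not tested. Over all genes, 792 calls became 904 with quantile normalization, 489 with a pseudocount of 1, 346 with the block, 159 at the stricter threshold, and 213 (mutant array 3 out) to 559 when 1 array was left out.

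Arrays with the same number did not vary together (correlation of deviations -0.234, -0.0584 and -0.169), so the block rests on the number only; under it PRE2 had adjusted p = 0.0714. Of 58 genes run under each setting, the sign of 14 turned in at least 1 setting, and none of the 14 passed in any. It turned with array weights for PRE1 (-0.00227), RPT4 (-0.000619) and RPN5 (-0.00375), with quantile normalization for RPT2 (0.0092) and UBR2 (0.00984), and with the length trend removed for HSF1 (-0.0013). When 1 array was left out, log2 differences ran from -0.0675 to 0.0193 for RPN4, -0.00809 to 0.125 for NAS6, -0.00536 to 0.0245 for PRE1, -0.0708 to 0.00303 for PRE6, -0.0321 to 0.00309 for PUP2, -0.0221 to 0.0641 for RPN5, -0.000263 to 0.0194 for RPN9, -0.0473 to 0.00835 for RPT2, -0.0103 to 0.0136 for RPT4, -0.0334 to 0.0391 for SCL1, -0.1 to 0.00899 for PDR3, -0.0163 to 0.0324 for HSF1, -0.0294 to 0.0261 for UBR2 and -0.00213 to 0.00698 for RAD23. Searches with other forms of the promoter element were not run.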
